A study of Rattus norvegicus with 8 samples.

Results

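The enzymes described here act in the pathway that ends in cholesterol. They were named as 8 genes, Hmgcs1, Idi1, Sqle, Fdps, Fdft1, Lss, Cyp51 and Dhcr7, and their values are those of every probe set that carries one of these symbols and no other in the platform annotation. This gave 11 probe sets for 7 of the 8 genes, out of 14218 genes with such a probe set. Idi1, Fdft1, Lss and Cyp51 had more than 1 probe set each. Hmgcs1 was matched by no probe set under this rule and was not analysed here.

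Cholesterol synthesis starts from acetyl-CoA and passes through mevalonate, isoprenoids and squalene before the sterol rings are closed and trimmed. The brain makes nearly all of its own cholesterol, because lipoproteins of the blood do not cross the blood-brain barrier, and both myelinating oligodendrocytes and astrocytes are known as large producers. Many enzymes of the pathway share control by SREBP2, a membrane-bound transcription factor released when sterols run low, and SREBP2 is known to act together with NF-Y, which binds CCAAT boxes.

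RNA came from rat hippocampal slice cultures, in which sections of the hippocampus survive outside the animal, and from the pyramidal cell fields CA3 and CA1. The groups were CA3 lesion (1 array), CA1 lesion (1 array), CA3 control (3 arrays) and CA1 control (3 arrays). Every array carried a pool of 15 subdissected cultures and a time of 7 days. The labels do not give the kind of lesion, the event from which the days are counted, or the strain and age of the animals, and they do not say whether the control arrays came from separate preparations, so each p-value rests on a spread between arrays that may be technical.

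All 11 probe sets lay above the level under which dim probe sets were left out of the tests. Values are linear signals converted to log2(intensity + 16), so that 1 unit is close to a doubling, and a difference is the mean of the first group minus that of the second on this scale. Levels of different probe sets are not compared, since probes differ in how well they bind. The 8 arrays had pairwise correlations of 0.857 to 0.931 across probe sets. The 3'/5' signal ratio of a gene rises as RNA degrades. For Gapdh this ratio was 5.23 with CA3 lesion, above the range of 3.75 to 3.93 among CA3 controls. With CA1 lesion the Gapdh ratio was 4.65, inside the range of 3.71 to 5.0 among CA1 controls. The Gapdh ratio also differed between the control fields. CA1 controls 2 and 3 had 4.98 and 5.0, above every CA3 control, whereas CA1 control 1 had 3.71. The ratio of the beta-actin gene Actb was higher on every array and placed both lesion arrays inside their control ranges. Actb gave 19.8 with CA3 lesion (controls 15.0 to 21.4) and 17.3 with CA1 lesion (controls 14.5 to 22.2), so its control ranges overlapped between the fields. The part of either ratio in the results, between the fields or with lesion, was not tested. Of the field markers, 4 of 5 measured CA1 pyramidal markers passed as lower in CA3 controls and 2 of 5 measured CA3 markers passed as higher, while the CA3 marker Elavl4 had a difference of the opposite sign that did not pass (-0.84 ± 0.45, SE, limma adjusted p = 0.667).

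Promoters of Idi1 and Fdps are shown because Idi1 had the largest mean lesion effect of the members and Fdps, the next enzyme of the isoprenoid part, did not follow it between the fields. They are RefSeq sequences of the GRCr8 rat assembly that run from 250 bases before to 50 bases after the start of the gene. Idi1 lies at chr17:66547475-66547774 and Fdps at chr2:176804767-176805066, both on the minus strand, and capitals mark CCAAT on either strand, so that ATTGG is CCAAT read on the opposite strand.
Idi1: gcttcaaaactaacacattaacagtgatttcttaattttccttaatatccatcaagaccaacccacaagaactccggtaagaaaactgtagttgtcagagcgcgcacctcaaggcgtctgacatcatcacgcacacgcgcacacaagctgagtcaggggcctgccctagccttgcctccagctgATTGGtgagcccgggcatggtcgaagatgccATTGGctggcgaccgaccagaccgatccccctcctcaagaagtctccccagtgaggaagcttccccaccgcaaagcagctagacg
Fdps: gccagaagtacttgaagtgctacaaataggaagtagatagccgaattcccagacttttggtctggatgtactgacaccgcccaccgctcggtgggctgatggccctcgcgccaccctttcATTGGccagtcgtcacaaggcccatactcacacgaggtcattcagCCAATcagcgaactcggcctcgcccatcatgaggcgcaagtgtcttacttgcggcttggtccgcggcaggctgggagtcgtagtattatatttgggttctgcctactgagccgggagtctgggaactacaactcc

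Both windows hold CCAAT at 2 places, whose first bases lie at -66 and -35 in Idi1 and at -130 and -85 in Fdps, counted from the gene start. CCAAT was found in 3 of the 5 measured members with an entry in the promoter table (Idi1, Fdps and Lss) and in 37.5% of 33469 rat promoters of the same length. The letters TCACNCCAC, as in many sterol regulatory elements, were in 0 of the 5 windows and in 1.12% of all promoters, and the E-box CACGTG was in 0 of the 5 and in 6.42%. Sqle and Fdft1 have no entry in that table. A match or its absence describes these letters in these windows and says nothing of binding.

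The first comparison sets control cultures of the 2 fields against each other. Most of the enzymes had somewhat more signal in CA3 than in CA1 controls, but none of the differences passed the threshold. Of the 11 probe sets 10 were higher in CA3, whereas 45.5% of the 18625 probe sets tested were. The median difference was 0.41 over the 11 probe sets, in which 4 genes count more than once, 0.14 over the 7 genes by their brightest probe set, and -0.04 over all probe sets tested. The differences lay between 0.37 and 0.51 for Idi1, Fdft1, Sqle and the dimmer probe set of Cyp51, and reached 1.44 for the dimmer probe set of Lss. They were 0.13 and 0.14 for the brighter probe sets of Cyp51 and Lss, and near 0 for Fdps and Dhcr7. In limma, with Benjamini-Hochberg adjustment over all probe sets, 0 of the 11 passed, against 0.526% of all probe sets, and 3 of the 11 had an unadjusted p under 0.05, against 8.31% of all.

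Idi1 encodes isopentenyl diphosphate isomerase, which makes the starter unit of isoprenoid chains. Its brighter probe set (1388872_at) stood at 12.74, 13.19 and 12.59 in CA3 controls 1 to 3, against 12.49, 12.14 and 12.35 in CA1 controls 1 to 3. All CA3 controls lay above all CA1 controls. The difference was 0.51 ± 0.21 (SE, 3 arrays in each field, limma adjusted p = 0.575), which is 1.43-fold.

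The other probe set of Idi1 (1368878_at) differed by a similar amount, 0.50 ± 0.29 (limma adjusted p = 0.687), but with overlapping groups, at 11.15, 11.10 and 10.83 in CA3 controls against 10.65, 10.85 and 10.08 in CA1 controls. Both probe sets therefore placed CA3 higher by about the same amount.

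Fdps encodes farnesyl diphosphate synthase, which joins isoprenoid units into the precursor of squalene and of protein prenyl groups. It had 14.89, 14.54 and 14.14 in CA3 controls 1 to 3, against 14.97, 14.34 and 14.33 in CA1 controls 1 to 3. The fields overlapped, with a difference of -0.02 ± 0.24 (SE, limma adjusted p = 0.988) and a 95% interval of -0.55 to 0.50. In both fields control 1 was the highest array, and the range within a field was wider than the difference between fields.

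Fdft1 encodes squalene synthase, the first enzyme committed to sterols. Its brighter probe set (1367839_at) stood at 13.46, 12.94 and 12.54 in CA3 controls 1 to 3, against 13.04, 12.61 and 11.89 in CA1 controls 1 to 3, and differed by 0.46 ± 0.31 (SE, limma adjusted p = 0.733). The fields overlapped, although CA3 was higher between arrays of each label number. The other probe set (1389906_at) gave 0.45 ± 0.30 (limma adjusted p = 0.730).

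Sqle encodes squalene epoxidase, an oxygen-dependent and rate-limiting step. It had 13.76, 13.90 and 13.75 in CA3 controls 1 to 3, against 13.59, 13.28 and 13.31 in CA1 controls 1 to 3. The groups did not overlap, and the CA3 arrays spread little, with an SD of 0.081. The difference was 0.41 ± 0.16 (SE, n = 3 per field, limma adjusted p = 0.536), or 1.33-fold.

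Lss encodes lanosterol synthase, which closes the sterol rings, and its probe sets disagreed in size. The brighter one (1372973_at) had 11.16, 11.25 and 11.10 in CA3 controls 1 to 3, against 10.97, 11.11 and 11.01 in CA1 controls 1 to 3, a difference of 0.14 ± 0.22 (SE, limma adjusted p = 0.900). The dimmer one (1368086_a_at) had 9.96, 10.84 and 9.68 in CA3 controls, against 7.77, 8.80 and 9.59 in CA1 controls, a difference of 1.44 ± 0.57 (limma adjusted p = 0.538). Only the dimmer probe set kept the fields apart, and it was also the one with the widest spread, with an SD of 0.91 among CA1 controls.

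Cyp51 encodes lanosterol 14-alpha-demethylase, the cytochrome P450 of the pathway. One probe set (1387020_at) had 12.83, 12.71 and 12.64 in CA3 controls 1 to 3, against 12.37, 12.43 and 12.28 in CA1 controls 1 to 3, and did not overlap between fields (0.37 ± 0.17, SE, limma adjusted p = 0.613). The brighter one (1367979_s_at), whose ID marks possible cross-hybridisation, overlapped, with a difference of 0.13 ± 0.17 (limma adjusted p = 0.877). Dhcr7 encodes 7-dehydrocholesterol reductase, the last step to cholesterol, and differed by 0.02 ± 0.22 (limma adjusted p = 0.986), with 12.02, 12.08 and 12.09 in CA3 controls against 12.41, 11.97 and 11.74 in CA1 controls.

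In all, 4 of 11 probe sets, those of Idi1, Sqle, Lss and Cyp51 named above, had all CA3 controls above all CA1 controls, and 0 had them all below. Over all probe sets tested, 6.06% were fully higher and 8.85% fully lower in CA3. Between arrays of the same label number, 8 of 11 were higher in CA3 for number 1, 11 for number 2 and 10 for number 3, with medians of 0.24, 0.33 and 0.24, where all probe sets tested had medians of -0.02, -0.07 and -0.05. With 1 array left out, the median over the 11 probe sets ran from 0.27, without CA3 control 1 or CA1 control 3, to 0.49 without CA1 control 1. Neuron markers were higher in CA3 in 11 of 12 genes with a median of 0.58, and their summed signal was 331385 to 468582 in CA3 controls against 225363 to 301093 in CA1 controls. Fibroblast and meninges markers were higher in CA3 in 5 of 6 genes with a median of 0.56. They summed to 24025 to 28463 in CA3 controls against 6098 to 9861 in CA1 controls. The 1 of them past the threshold was Ptgds, at 5.66 ± 0.52 (SE, limma adjusted p = 0.00305), whose part in that sum was not separated. Dcn went the other way, at -1.99 ± 0.52 (limma adjusted p = 0.212). Astrocyte markers were lower in CA3 in 7 of 9 genes with a median of -0.21. The Gapdh 3'/5' ratio was also higher in CA1 controls 2 and 3 than in every CA3 control. The part of this ratio and of these markers in the enzyme differences was not tested.

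**Figure D1:**
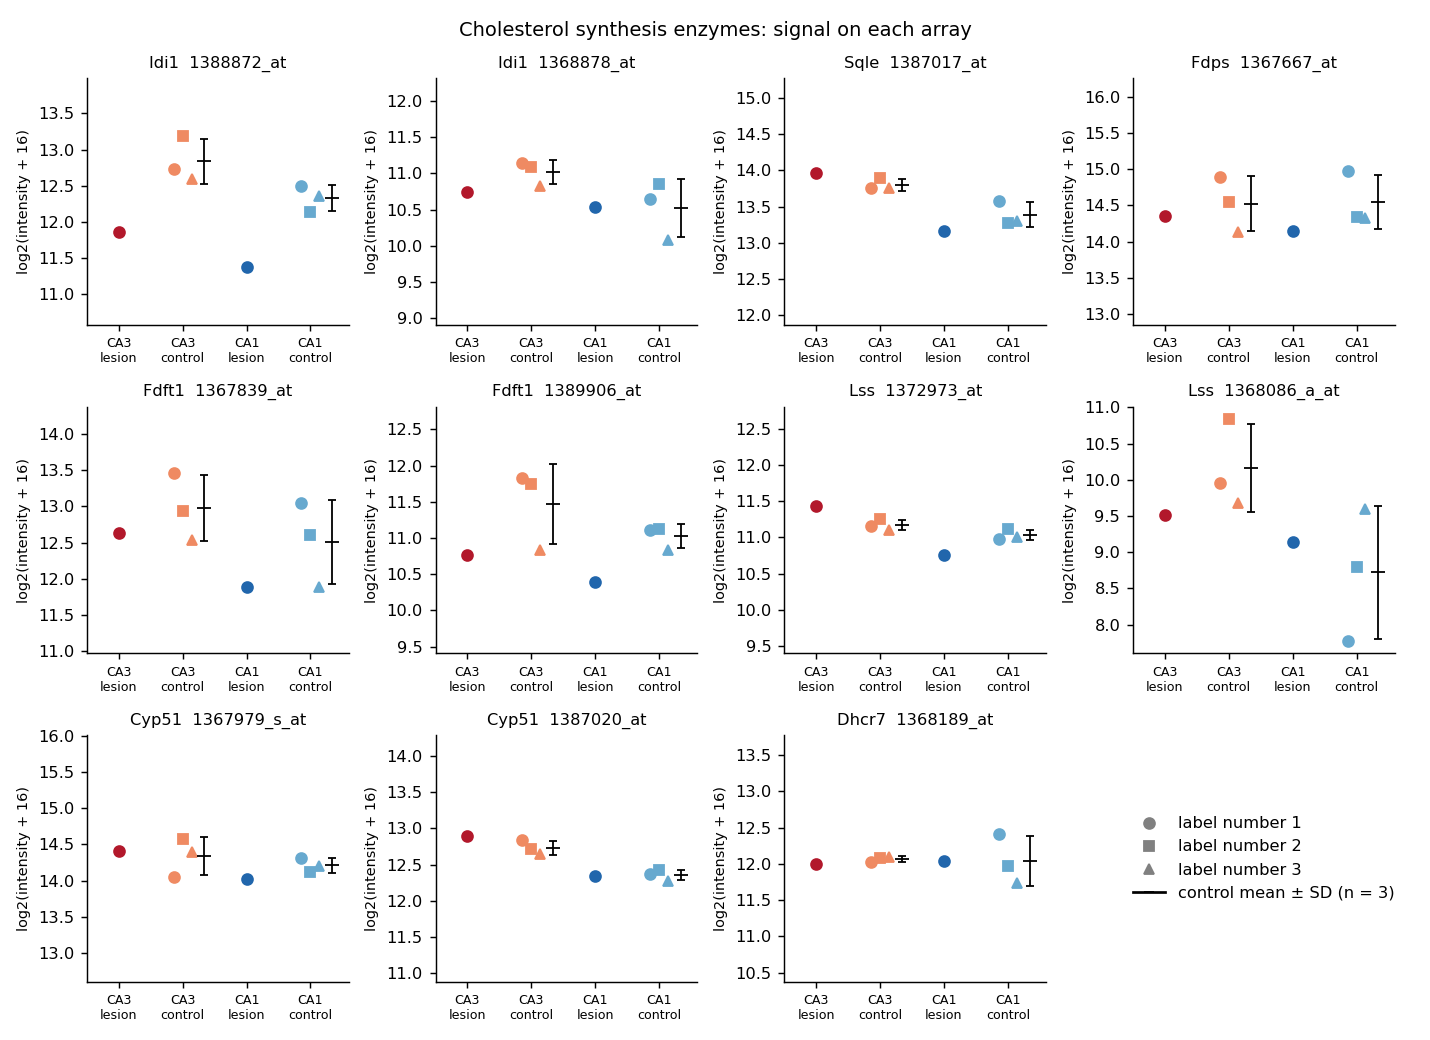
Signal of each of the 11 probe sets, as log2(intensity + 16), on the 8 arrays, with lesion arrays in dark and control arrays in light colours, symbols for the label number, and bars for the control mean and SD (n = 3 arrays). Every panel spans the same number of log2 units, and the lesion arrays lie below all controls of their field for Idi1 (1388872_at) in both fields.

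**Figure D2:**
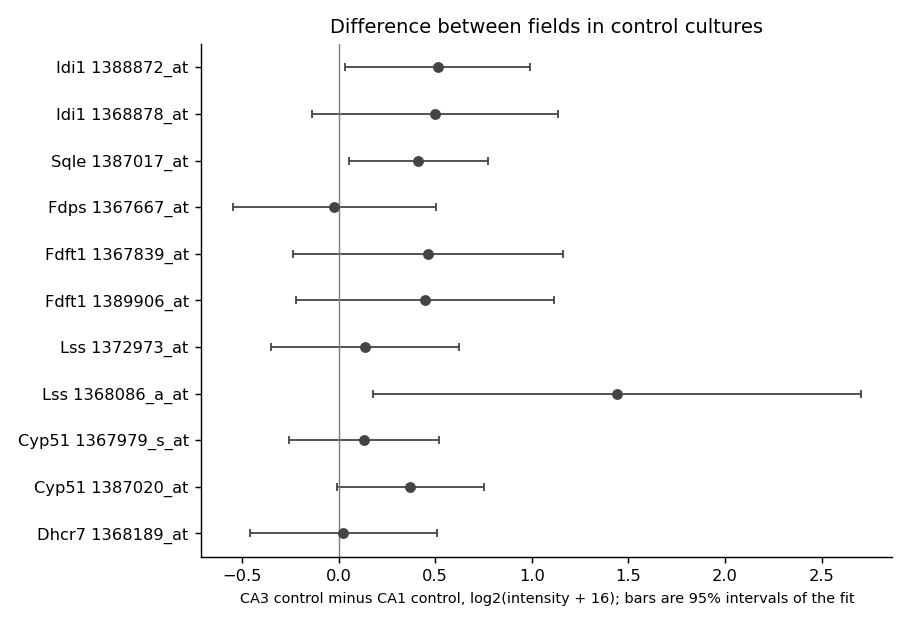
Difference between CA3 and CA1 control arrays (log2 units, horizontal axis) for each probe set (vertical axis), with 95% intervals from the fit and n = 3 arrays per field. Of the 11 points 10 lie to the right of 0, and the widest interval is that of the dimmer Lss probe set, from 0.18 to 2.70.

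The lesion arrays were then set against the controls of their field, which are the same control arrays as above. They had less signal for 1 probe set each of Idi1 and Fdft1 than every control of both fields, while the later enzymes lay close to the controls or on opposite sides of them in the 2 fields. In the mean lesion effect over both fields 10 of 11 probe sets were below 0, and 52.2% of all probe sets tested were above 0. The median was -0.11 over the 11 probe sets, -0.06 over the 7 genes by their brightest probe set, and 0.02 over all probe sets tested. In limma 0 of the 11 passed, as did 0% of all probe sets tested, and 1 of 11, Idi1, had an unadjusted p under 0.05, against 6.41% of all. Each lesion group is a single array, assumed here to vary like the controls.

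Idi1 had the largest mean lesion effect of the 11 probe sets. Its brighter probe set had 11.86 in the CA3 lesion array, against 12.74, 13.19 and 12.59 in CA3 controls 1 to 3. It had 11.37 in the CA1 lesion array, against 12.49, 12.14 and 12.35 in CA1 controls 1 to 3. Each lesion array lay below every control of its field by at least 0.74 in CA3 and 0.77 in CA1.

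The mean lesion effect on this probe set was -0.97 ± 0.21 (SE, 2 lesion arrays against 6 controls, limma unadjusted p = 0.00107, adjusted p = 0.556), which is 1.96-fold lower. In the single fields it was -0.98 ± 0.30 in CA3 (limma adjusted p = 0.799) and -0.96 ± 0.30 in CA1 (limma adjusted p = 0.999). The other Idi1 probe set did not show this, with -0.14 ± 0.29 (limma adjusted p = 0.939), and had 10.74 in the CA3 lesion array and 10.54 in the CA1 lesion array. The lower signal was therefore seen with 1 of the 2 Idi1 probe sets, and the mean of both gave -0.55.

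Fdft1 had negative lesion effects with both probe sets, -0.48 ± 0.31 and -0.67 ± 0.30 (SE, limma adjusted p = 0.812 and 0.771). The dimmer one (1389906_at) had 10.77 in the CA3 lesion array, against 11.82, 11.75 and 10.84 in CA3 controls 1 to 3, and 10.40 in the CA1 lesion array, against 11.11, 11.12 and 10.83 in CA1 controls 1 to 3. The brighter one had 12.63 in the CA3 lesion array and 11.89 in the CA1 lesion array. With it, the CA3 lesion array lay between its controls, and the CA1 lesion array was level with CA1 control 3.

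Fdps had 14.35 in the CA3 lesion array, inside its control range, and 14.14 in the CA1 lesion array, below all CA1 controls. Its mean lesion effect was -0.29 ± 0.24 (SE, limma adjusted p = 0.837). Against control 1 alone, which carries the same label number as the lesion arrays, Fdps differed by -0.54 in CA3 and -0.83 in CA1. Against control 3 it differed by 0.22 and -0.19, so the size and, in CA3, the direction depended on the control chosen.

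Sqle lay on opposite sides of the controls in the fields. It had 13.97 in the CA3 lesion array, above all CA3 controls, and 13.17 in the CA1 lesion array, below all CA1 controls. The lesion effects were 0.17 ± 0.23 in CA3 and -0.22 ± 0.23 in CA1, and the difference between them was 0.39 ± 0.33 (SE, limma adjusted p = 1.00).

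The brighter Lss probe set had the same order, with 11.44 in the CA3 lesion array and 10.76 in the CA1 lesion array, effects of 0.27 ± 0.31 and -0.27 ± 0.31, and a difference of 0.54 ± 0.44 (limma adjusted p = 1.00). The dimmer Lss probe set went the other way, at -0.65 ± 0.80 in CA3 and 0.42 ± 0.80 in CA1. Sqle and Lss were the 2 of 11 probe sets with the CA3 lesion array above and the CA1 lesion array below all controls, a pattern held by 6.1% of all probe sets tested.

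Cyp51 had mean lesion effects of -0.06 ± 0.17 and 0.07 ± 0.17 with its 2 probe sets (SE, limma adjusted p = 0.963 and 0.945), and Dhcr7 one of -0.03 ± 0.22 (limma adjusted p = 0.986). The 95% interval of Dhcr7 ran from -0.51 to 0.46, so differences inside that interval are not excluded by this fit. Dhcr7 had 12.004 in the CA3 lesion array and 12.04 in the CA1 lesion array.

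Counted over arrays, 5 of 11 probe sets in the CA3 lesion array lay below all CA3 controls and 3 above them, where 24.8% and 29.7% of all probe sets tested did. In the CA1 lesion array 7 of 11 lay below all CA1 controls and 0 above them, where 24.8% and 21.2% of all probe sets did. The counts below include small gaps, such as -0.0011 for Fdft1 (1367839_at) from CA1 control 3 and -0.018 for Dhcr7 from CA3 control 1. They also count each probe set of Fdft1 in CA1 and each of Idi1 in CA3. Both lesion arrays lay below all their controls for 2 of 11 probe sets, 1 each of Idi1 and Fdft1, and for 8.03% of all, and both lay above them for 0 of 11 and for 7.98% of all. The lesion effect was above 0 for 4 of 11 probe sets in CA3 and 3 of 11 in CA1, against 54.5% and 50.7% of all, and the CA3 effect exceeded the CA1 effect in 6 of 11, against 51% of all. In the single-field tests 0 of the 11 passed in CA3 and 0 in CA1, with limma, as for all probe sets, and 1 of 11 had an unadjusted p under 0.05 in each field (Idi1), against 4.68% of all in CA3 and 3.63% in CA1. The difference between the lesion effects gave 0 members past the adjusted threshold with limma, and also 0 at an unadjusted p under 0.05, against 3.09% of all.

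**Figure D3:**
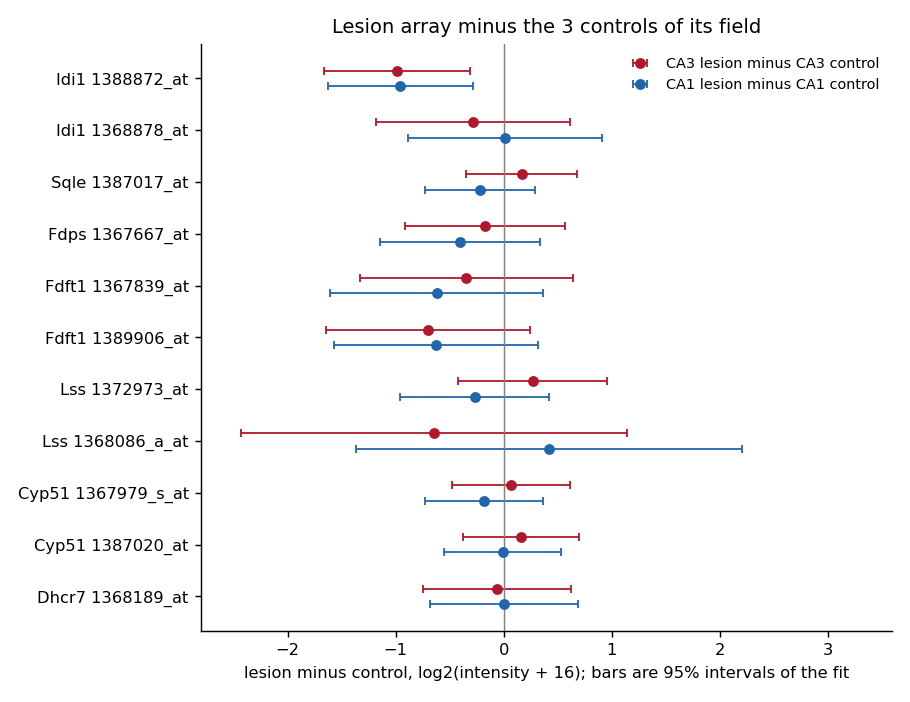
Lesion array minus the mean of the 3 controls of its field (log2 units, horizontal axis) for each probe set (vertical axis), in red for CA3 and blue for CA1, with 95% intervals from the fit. Idi1 (1388872_at) is the only probe set whose intervals lie below 0 in both fields, at -1.66 to -0.31 in CA3 and -1.63 to -0.28 in CA1.

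Microglia and myelin markers differed far more between arrays than the enzymes did, whereas astrocyte marker medians, at -0.41 to 0.31, spanned about as much. With each gene centred on its own mean, the median of 10 measured microglia markers stood at 1.696 in the CA3 lesion array and 2.14 in the CA1 lesion array, against -1.84, -1.31 and 1.32 in CA3 controls 1 to 3 and -1.81, -0.97 and 1.35 in CA1 controls 1 to 3. The 8 measured myelin markers stood at 1.22 in the CA3 lesion array and 1.31 in the CA1 lesion array, against -1.77, -0.15 and 1.10 in CA3 controls and -2.58, -0.10 and 1.12 in CA1 controls. Control 3 of each field was thus the control nearest to the lesion array in both lists, and control 1 the farthest.

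Summed signal of the microglia markers was 102971 in the CA3 lesion array and 144636 in the CA1 lesion array, against 6812 to 83814 in CA3 controls and 7075 to 100507 in CA1 controls. For the myelin markers it was 682564 in CA3 lesion and 620224 in CA1 lesion, against 80802 to 503344 in CA3 controls and 62383 to 668142 in CA1 controls. No marker of either list was at 0 on any array, the lowest single values being 104 and 83.6. In bulk RNA, fewer cells of a type and less RNA per cell cannot be told apart.

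The 7 enzyme genes together, each by its brightest probe set, had medians of 0.01 in the CA3 lesion array and -0.34 in the CA1 lesion array, against 0.17, 0.31 and 0.05 in CA3 controls 1 to 3 and 0.15, -0.12 and -0.13 in CA1 controls 1 to 3. The CA1 lesion array was the lowest of the 8, and CA3 control 2 the highest. The spread of these medians was small beside that of the myelin and microglia markers.

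Each lesion array was also set against control 3 of its field alone, the control nearest to it in microglia and myelin markers. Control 3 does not carry the label number of the lesion arrays, which is 1. Control 3 was also the nearest control in neuron markers. Their medians were -0.08 in the CA3 lesion array, -0.04 in CA3 control 3 and 0.70 in CA3 control 1. In CA1 they were -0.49 in the lesion array, -0.50 in control 3 and 0.02 in control 1. With 1 array on each side, glial content, neuronal content and label number cannot be told apart, and none of them was tested. Against control 3, Idi1 (1388872_at) differed by -0.74 in CA3 and -0.98 in CA1, and against control 1 by -0.88 and -1.12. Fdft1 (1367839_at) differed by 0.09 and -0.0011 against control 3, and by -0.82 and -1.15 against control 1. With 1388872_at the lower Idi1 signal was thus seen against every control, while the other Idi1 probe set (1368878_at) was higher by 0.46 in the CA1 lesion array than in CA1 control 3. That of Fdft1 with 1367839_at was not seen against control 3.

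Over the 11 probe sets, the CA3 lesion array was higher in 4 against control 1, 3 against control 2 and 6 against control 3, with medians of -0.41, -0.19 and 0.02. The CA1 lesion array was higher in 1, 2 and 3 of the 11 against CA1 controls 1, 2 and 3, with medians of -0.36, -0.20 and -0.17. Neuron markers were lower in 12 of 12 genes in the mean lesion effect, with a median of -0.33, and astrocyte markers were higher in 8 of 9 with a median of 0.39. With 1 array left out, the median lesion effect over the members in CA3 ran from -0.081 without CA3 control 1 to -0.36 without CA3 control 3. The part of glial or neuronal content in the enzyme values was not tested.

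**Figure D4:**
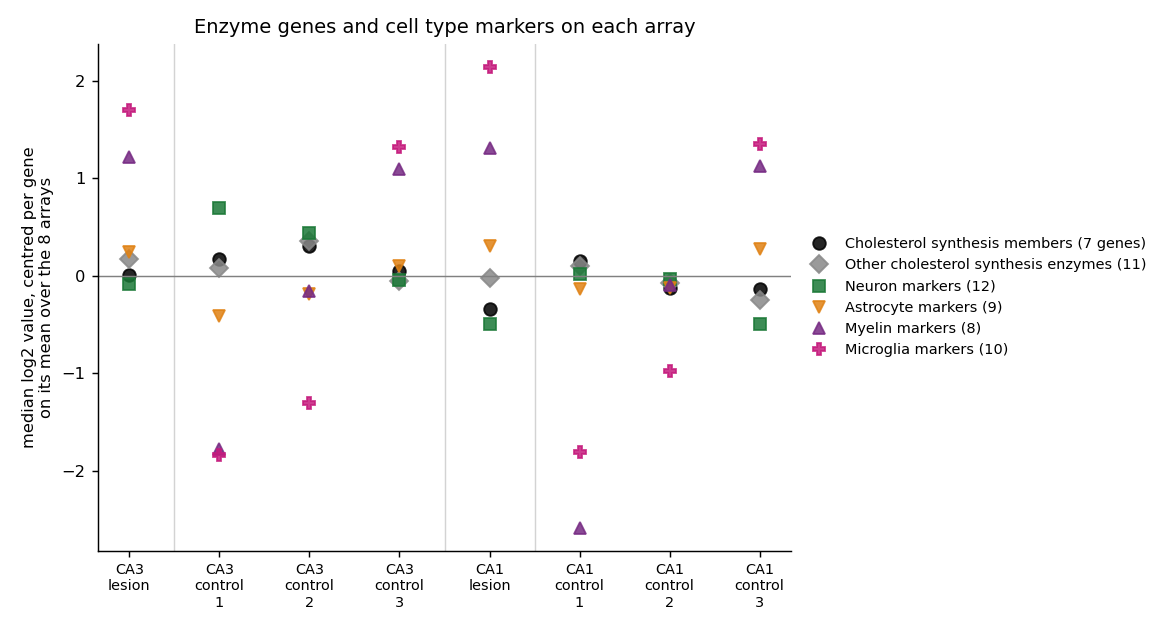
Median log2 value per array, each gene centred on its mean over the 8 arrays, for the 7 measured enzyme genes, 11 other enzymes of the pathway and 4 lists of cell type markers. The enzyme medians stay between -0.34 and 0.31, while the microglia and myelin medians run from -1.84 to 2.14 and from -2.58 to 1.31.

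Across arrays most pairs of enzyme genes varied in the same sense. Of the 21 pairs among the 7 genes, 20 had a Pearson correlation above 0 over the 8 arrays, with a median of 0.50, against 49.8% of all pairs of probe sets tested. Over the 6 control arrays alone 17 of the 21 were above 0 and 4 below, with a median of 0.44, and the pairs below 0 were Fdps with Lss, Fdps with Cyp51, Fdft1 with Cyp51 and Lss with Dhcr7. Over the 8 arrays the values ran from -0.11 for Lss with Dhcr7 to 0.82 for Sqle with Lss. Fdps and Fdft1, consecutive enzymes, had 0.80, and Sqle and Cyp51 had 0.72, whereas Fdps and Cyp51 had 0.02. These are descriptions over 8 arrays that share fields, label numbers, and glial and neuronal content.

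The genes most like the mean of the enzymes over the 8 arrays were Slc2a3, the neuronal glucose transporter, with r = 0.98 (rho 0.90), Brms1 (0.97), Ttbk2 (0.97), Cxxc5 (0.97), the neuronal enolase Eno2 (0.96), Akap11 (0.96), the phosphofructokinase gene Pfkp (0.95) and Nsdhl (0.95), which encodes a later enzyme of the same pathway. The least alike were Srd5a3 (-0.97), Fmnl3 (-0.97), Cd24 (-0.96) and Dync2li1 (-0.95). They were picked as the extremes among 13958 probe sets with 1 gene symbol, whose 99th percentile was 0.86. Without the CA1 lesion array and CA3 control 2, the arrays farthest from the median, r was 0.88 to 0.98 for the 8 alike and -0.98 to -0.89 for the 4 unlike.

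Of 13 other enzymes of cholesterol synthesis 11 were measured. In controls 8 were higher in CA3 and 3 lower, with a median of 0.26, and 0 passed in either direction with limma, while 2 had an unadjusted p under 0.05. The smallest p-values belonged to Acat2 (1.04 ± 0.33, SE, limma adjusted p = 0.377), which condenses acetyl-CoA units at the head of the pathway, the late enzymes Sc5d (0.40 ± 0.16, adjusted p = 0.542) and Nsdhl (0.49 ± 0.22, adjusted p = 0.602), and Msmo1 (0.39 ± 0.19, adjusted p = 0.632). For the mean lesion effect 5 were higher and 6 lower, with a median of -0.05, and with limma 0 passed, adjusted or at an unadjusted p under 0.05. Nsdhl had the smallest p, at -0.46 ± 0.22 (limma adjusted p = 0.779). Along the arrays 9 of the 11 correlated above 0 with the mean of the members, against 45.9% of all named probe sets.

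The regulators of the pathway gave mixed values. Of 7 SREBP control genes 3 were higher and 4 lower in CA3 controls, and in limma 0 passed and 1 had an unadjusted p under 0.05. Srebf2, which encodes SREBP2, differed by 0.21 ± 0.21 between fields and by -0.45 ± 0.21 in the mean lesion effect (SE, limma adjusted p = 0.824 and 0.771), and its r with the members was 0.94. Srebf1, which encodes SREBP1, ran the other way, at -0.43 ± 0.19 and 0.34 ± 0.19 (limma adjusted p = 0.587 and 0.803), with an r of -0.89. Insig1, which retains SREBPs in the endoplasmic reticulum, differed by 0.51 ± 0.28 between fields (limma adjusted p = 0.675).

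Genes of the sterol uptake and transport lists, which include regulators, had less signal in CA3 controls, though none passed. The signal of most enzymes differed in the opposite direction. All 5 measured genes of the uptake list and all 7 of the transport and efflux list were lower in CA3. The medians were -0.20 and -0.25, and 45.5% of all probe sets tested were higher. In limma 0 of them passed, and 1 gene of the uptake list and 2 of the transport list had an unadjusted p under 0.05, against 8.31% of all. Among them were the apolipoprotein gene Apoe at -0.47 ± 0.18, the liver X receptor gene Nr1h3 at -1.05 ± 0.40, and Mylip at -0.64 ± 0.25 (SE, limma adjusted p = 0.530, 0.523 and 0.528). Mylip encodes a ligase that degrades lipoprotein receptors, so less signal of the uptake list does not mean less uptake. In the mean lesion effect the lysosomal sterol carrier Npc2 had 0.74 ± 0.23, Apoe 0.47 ± 0.18 and the efflux pump Abca1 -0.65 ± 0.25, each with a limma adjusted p = 0.771. Apoe, Npc2 and Nr1h3 are also expressed by glia, whose markers had higher values in the lesion arrays; their part was not tested.

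Sterol turnover held the largest single difference of these lists between the fields. Cyp27a1, a sterol 27-hydroxylase, differed by 2.04 ± 0.47 between CA3 and CA1 controls (SE, limma adjusted p = 0.131), and the neuronal cholesterol 24-hydroxylase Cyp46a1 had a mean lesion effect of -0.59 ± 0.20 (adjusted p = 0.771). Of 5 turnover genes 4 were higher in CA3 controls and 3 were higher in the mean lesion effect, and in limma 0 passed and 1 in each had an unadjusted p under 0.05. Of 10 SREBP targets of fatty acid synthesis 5 were higher and 5 lower in CA3 controls, and 2 were higher and 8 lower in the mean lesion effect, with medians of 0.03 and -0.28, and in limma 0 passed and 1 in each had an unadjusted p under 0.05. The desaturase gene Scd had the largest of these lesion differences, -1.18 ± 0.54 (limma adjusted p = 0.771).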

How the data were processed

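Expression was measured on 8 arrays of rat hippocampal slice cultures. The deposited values are linear signal intensities, 1 per probe set and array. The 2% trimmed mean was about 2501 on each array, so the arrays share a scale; the scaling software is not given in the sources used here. Intensities were kept as deposited and converted to log2(value + 16). Of 31099 probe sets, 57 control probe sets and those with a mean under the 40th percentile were left out, leaving 18625. Gene names came from the platform annotation (20832 probe sets with 1 symbol, 436 with several, 9831 with none). limma 3.58.1 in R 4.3.3 was fitted to all 8 arrays with 1 coefficient per group, an intensity trend in the variances, 4 residual degrees of freedom, and Benjamini-Hochberg adjustment at 0.05. The fit was also run on simulated data, with differences planted between the control fields that were larger than those of the members. Lesion effects were not examined there, so that run does not bear on them or on differences as small as those of the members. All member probe sets are named; of each other pathway list, those named are among the 4 with the smallest p, and those most alike are the 8 highest and 4 lowest correlations. Members, lists and alternatives were chosen with earlier results of these data known. Arrays have no depth, and their number limits precision. Alternatives concerned normalisation, pseudocount, filter, variance trend, probe set class, replicate block and left-out arrays.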

Additional observations from a re-analysis of the deposited data

How the results depend on the processing

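The number of member probe sets past the threshold was 0 in every comparison under every alternative run, except the mean lesion effect with the replicate block. That block uses the label numbers, and the labels do not say whether arrays of the same number share a preparation. Deviations of same-numbered controls correlated at 0.155, 0.060 and 0.306, and each control correlated best with its own number. Microglia and myelin medians also rose from control 1 to control 3 in both fields. Arrays of a number thus shared some variation, but its source is not given, so the fit without the block was kept as the main one. With the replicate block, 3 member probe sets passed for the mean lesion effect in limma, Idi1 at -1.0006 (adjusted p = 0.0472), Fdps at -0.68 (adjusted p = 0.0385) and Fdft1 at -0.99 (adjusted p = 0.0176), on 2 residual degrees of freedom and among 697 calls in all, against 0 without it. The fit then rests on label number 1, the only one with lesion arrays, and there were 358 calls between the fields with it and 98 without it, 310 in the CA3 lesion effect and 258 in the CA1 lesion effect, 0 of them members.

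Calls between the fields over all probe sets numbered 0 without the intensity trend, 5 without control 1 of both fields, and with 1 control array left out 24 (CA3 control 2), 27 (CA1 control 2), 29 (CA3 control 1) and 47 (CA1 control 1). Without control 3 of both fields, 182 probe sets passed for the mean lesion effect, 6 in CA3 and 3 in CA1, and Idi1 stood at -1.03 (limma adjusted p = 0.0672); 5 passed in CA3 with quantile normalisation or a pseudocount of 1. The median lesion effect over the members in CA3 was -0.36 without control 3 of both fields, and ran from -0.36 to -0.081 with single arrays left out. The median difference between the lesion effects ran from 0.011 without CA1 control 1 to 0.21.

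Several differences turned sign. The largest of them was Lss in the difference of the lesion effects, 0.54 with its brightest probe set, the largest of the 7 genes there, and -0.27 with the mean of its probe sets, which disagree. Without control 1 of both fields they were 0.0063 for Fdps between the fields, 0.012 for Sqle and 0.053 for Dhcr7 in the mean lesion effect, and 0.012 for Fdps and -0.076 for Cyp51 in the CA3 lesion effect. Without control 3 of both fields they were 0.061 for Fdps and -0.14 for Dhcr7 between the fields, -0.15 for Dhcr7 in the CA1 lesion effect and 0.10 for Dhcr7 in the difference of the effects. With the replicate block they were 0.033 for Lss and 0.035 for Cyp51 in the mean lesion effect and -0.16 for Dhcr7 in CA1. With quantile normalisation they were -0.026 for Dhcr7 in CA1 and 0.043 for Idi1 in the difference, and with a pseudocount of 64 Lss had 0.00059 in the mean lesion effect. With the mean of a gene's probe sets, Cyp51 had 0.0087 in the mean lesion effect, and Lss had -0.19 in CA3 and 0.076 in CA1.

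With single arrays left out, the ranges that crossed 0 were, between the fields, -0.21 to 0.19 for Fdps and -0.13 to 0.21 for Dhcr7. In the mean lesion effect they were -0.054 to 0.023 for Sqle, -0.017 to 0.019 for Lss, -0.13 to 0.0030 for Cyp51 and -0.10 to 0.064 for Dhcr7. In CA3 they were -0.36 to 0.012 for Fdps and -0.076 to 0.19 for Cyp51, and in CA1 -0.15 to 0.19 for Dhcr7. In the difference of the effects they were -0.15 to 0.15 for Idi1 and -0.25 to 0.087 for Dhcr7. The cause of these changes was not tested. Leaving out a lesion array gives no value for its own effect, the mean or the difference.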
